A study of Mus musculus with 10 samples.

Results

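The DNA replication genes followed here encode the proteins that license replication origins, unwind and copy DNA, supply its nucleotides and rebuild chromatin behind the fork. They were chosen as a list of 39 genes by function, and 38 of them were measured, out of 22180 genes with a probe set of their own. Of a gene with several probe sets, the one with the highest mean was used. The missing gene is Rfc4, whose probe set also names other genes. Levels are log2 values from Affymetrix arrays, on which a difference of 1 is a 2-fold change, and every difference below is Fntb KO minus WT.

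The cells were regulatory T (Treg) cells, the Foxp3-expressing CD4 T cells that restrain immune responses. CD4+ YFP+ cells had been sorted from the spleen and pLN of mouse chimeras. The chimeras were WT for 5 samples and Foxp3CreFntbfl/fl, labelled Fntb KO, for the other 5. Fntb encodes the beta subunit of protein farnesyltransferase, and the Foxp3-driven Cre removes its floxed alleles in cells that express Foxp3. The labels give neither the ages nor the host cells that the chimeras kept, and they do not say whether the WT cells carried the Cre. Nor do they tie the samples to separate animals, and the p-values cover only the spread among these samples, which may be technical. The design asks which transcripts of Treg cells change when farnesylation is lost in them.

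Before a cell copies its DNA, the origin recognition complex, Cdc6 and Cdt1 load the ring of MCM proteins onto each origin. Cdc45 and the GINS complex turn that ring into the active helicase at the start of S phase, and primase, polymerases and the sliding clamp PCNA follow it. Many of these genes are transcribed under E2F factors as cells pass from G1 into S phase, so their transcripts are common markers of cycling cells. In mice, effector Treg cells are known to divide more than resting ones.

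The promoters of the members with the largest differences are shown, because E2F binding there is the textbook route to their induction late in G1. RefSeq sequences (GRCm38.p6) run from 250 bases before to 50 bases after the annotated start of each gene. They were matched by symbol for 32 of the 39 genes, in 37 entries because some genes have several starts. Capitals mark matches to the E2F core, searched on both strands as TTCCCGC and TTCGCGC and also as TTGCCGC and TTGGCGC, with overlapping matches joined to 1. Where a gene has several starts, the most upstream is printed.
Uhrf1, chr17:56303087-56303386, plus strand: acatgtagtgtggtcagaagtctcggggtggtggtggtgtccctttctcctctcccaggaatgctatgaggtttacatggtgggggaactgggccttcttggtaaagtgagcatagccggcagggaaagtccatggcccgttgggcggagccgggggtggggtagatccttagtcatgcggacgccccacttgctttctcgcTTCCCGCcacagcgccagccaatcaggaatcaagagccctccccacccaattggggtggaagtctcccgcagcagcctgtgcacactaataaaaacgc
Rrm1, chr7:102441445-102441744, plus strand: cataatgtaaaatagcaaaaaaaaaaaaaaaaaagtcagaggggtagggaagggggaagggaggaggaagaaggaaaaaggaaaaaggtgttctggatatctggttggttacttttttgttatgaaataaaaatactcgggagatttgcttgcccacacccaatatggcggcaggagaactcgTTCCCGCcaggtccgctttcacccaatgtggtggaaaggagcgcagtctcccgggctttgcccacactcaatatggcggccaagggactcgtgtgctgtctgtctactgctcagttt
Rrm2, chr12:24708004-24708303, plus strand: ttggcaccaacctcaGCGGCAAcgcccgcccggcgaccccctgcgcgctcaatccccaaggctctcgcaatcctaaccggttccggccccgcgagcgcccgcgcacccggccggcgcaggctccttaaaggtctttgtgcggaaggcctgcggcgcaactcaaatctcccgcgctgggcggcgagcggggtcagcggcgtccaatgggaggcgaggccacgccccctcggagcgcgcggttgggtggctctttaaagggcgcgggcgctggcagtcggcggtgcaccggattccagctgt
Mcm6, chr1:128359656-128359955, minus strand: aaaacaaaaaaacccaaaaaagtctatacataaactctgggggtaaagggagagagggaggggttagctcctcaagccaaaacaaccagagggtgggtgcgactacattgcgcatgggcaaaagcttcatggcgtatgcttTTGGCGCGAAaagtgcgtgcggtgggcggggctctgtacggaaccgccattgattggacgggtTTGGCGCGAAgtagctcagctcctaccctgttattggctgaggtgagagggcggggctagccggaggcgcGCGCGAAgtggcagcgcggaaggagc
Mcm3, chr1:20820263-20820562, minus strand: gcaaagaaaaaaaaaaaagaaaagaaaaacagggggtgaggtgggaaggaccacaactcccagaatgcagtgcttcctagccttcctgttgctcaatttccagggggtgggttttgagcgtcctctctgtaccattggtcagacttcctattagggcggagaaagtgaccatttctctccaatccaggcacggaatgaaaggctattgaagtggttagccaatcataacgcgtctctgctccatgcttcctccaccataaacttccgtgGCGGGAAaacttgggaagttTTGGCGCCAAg
Counted from the start, the match begins at base -48 in Uhrf1, at -67 in Rrm1 and at -235 in Rrm2. Mcm6 holds 3 matches, from bases -109, -46 and 25, and Mcm3 holds 2 behind the start, from bases 20 and 40. Of Lig1's listed starts the most upstream has 0 matches and the others 2 and 1.

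A match to the E2F core was present in 25 of the 37 member promoters (67.6%), against 9.57% of the 32851 RefSeq promoters of the same length. Member promoters also had a median GC content of 60%, against 52.7% for all promoters, and the core is rich in G and C. CCAAT, the NF-Y box, stood on either strand in 64.9% of member promoters and in 37.4% of all. The 21 genes with a match in an entry had a median difference of -0.12, and the 10 with an entry but no match had -0.10. These are letter matches only and say nothing of binding in these cells.

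The targeted gene was checked first. Its transcript measured 6.12 ± 0.16 in WT samples and 5.47 ± 0.12 in Fntb KO samples (SD, n = 5 each), a difference of -0.65. The limma adjusted p was 0.00442, and the two-sided exact permutation test gave p = 0.00794, the smallest possible for 5 against 5. Where its probe set lies against the deleted part was not examined. Medians of all probe sets ran from 4.09 to 4.25, and the lowest were those of WT 2, Fntb KO 1 and Fntb KO 2. The median of mitochondrial ribosomal protein genes was 7.0 to 7.1 (log2) in those 3 arrays and 6.3 to 6.7 in the others. WT 2 also held the highest WT value of 28 of the 38 replication genes. Fntb KO 1 held the highest Fntb KO value of 18, and Fntb KO 5 the lowest of all 10 arrays for 15. Results are therefore also given without those 3 arrays.

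Over all members, replication transcripts differed little in size and mostly in 1 direction. Differences were negative in 30 of the 38 genes (78.9%) and had a median of -0.11, where 47.5% of all genes tested were negative and their median was 0.01. One gene fell at an adjusted p under 0.05 over all genes, the methylation-maintenance factor Uhrf1, and 0 rose. That is 2.63% of the members, beside 0.807% of all genes lowered and 0.302% raised by the same limma fit. At an unadjusted p under 0.05, 11 members were lower (28.9%) and 0 higher, beside 5.01% and 4.25% of all genes. Of genes with a mean level no lower than that of the median gene, 53.0% were negative and 7.75% lower at that unadjusted p. Of the same genes 1.42% were lowered at the adjusted threshold of the fit over all genes. In 3 members (7.89%) every Fntb KO array lay below every WT array, beside 1.65% of all genes and 2.65% of those at or above the median level. In 0 members every Fntb KO array lay above, beside 1.01% of all genes.

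**Figure D1:**
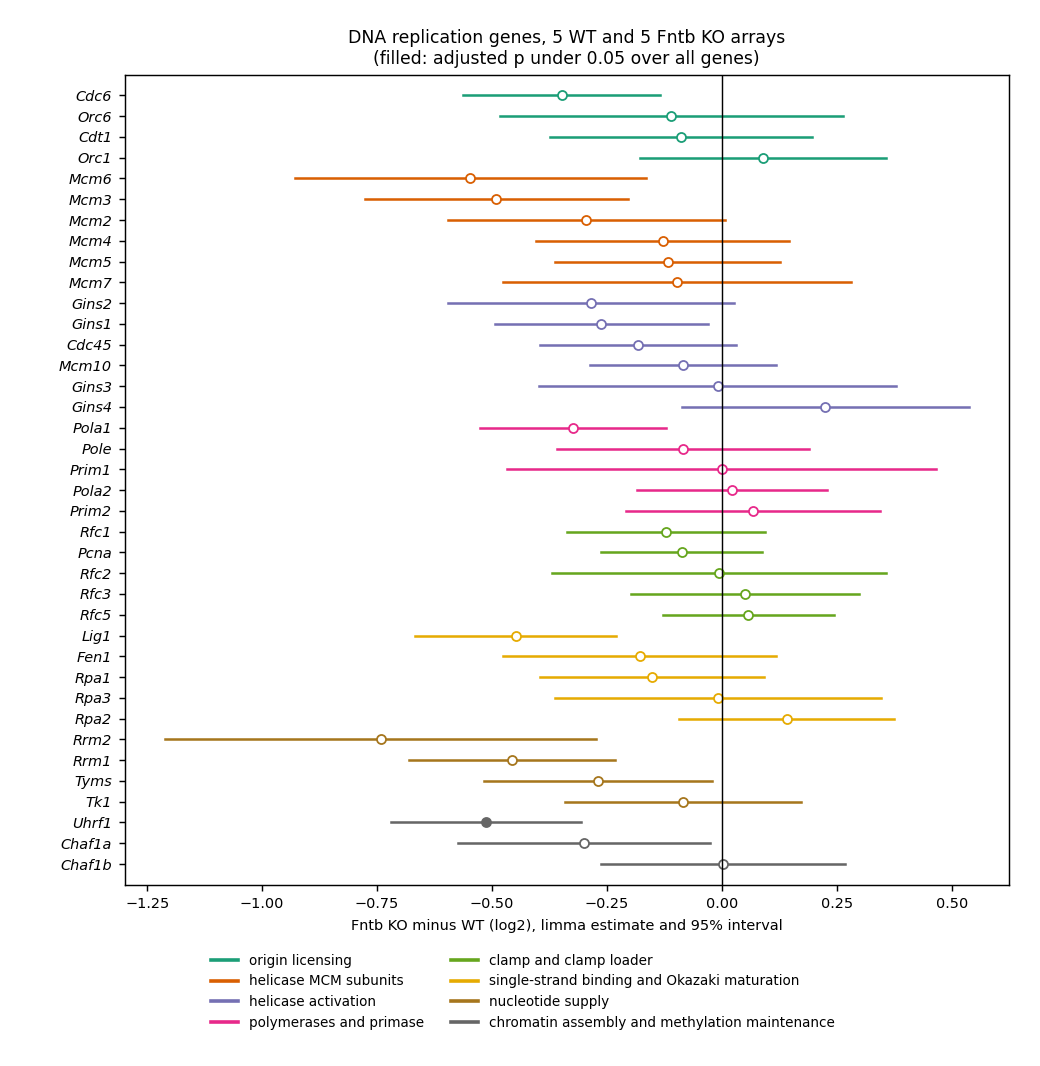
Fntb KO minus WT difference of each of the 38 measured replication genes (x axis, log2) with its 95% interval from the limma fit, grouped and coloured by role. Only Uhrf1 is filled (adjusted p under 0.05); most points lie left of 0, from -0.74 for Rrm2 to 0.22 for Gins4.

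The intervals describe the array estimates gene by gene, without adjustment for the number of genes. In both groups 4 of the 38 members lay below the olfactory receptor guide level given further on, where folds can understate a change. For 37 of the 38 genes the 95% interval from the fit excluded a 2-fold change in either direction, and the exception was Rrm2, with an interval of -1.21 to -0.27. That is 97.4% of the members, near the 99.0% of all genes tested. Spread among the arrays of a group had a similar median in both genotypes, while single genes differed. The SD of Orc6 was 0.10 in WT and 0.45 in Fntb KO, and that of Pcna 0.13 and 0.02. The SD over 5 arrays had a median of 0.21 across the members in WT and in Fntb KO alike, from 0.09 to 0.30 in WT and from 0.02 to 0.55 in Fntb KO. Fntb KO arrays were the more variable for 63.2% of the members and for 61.8% of all genes tested.

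Without the 3 low-median arrays, 31 members were negative, with a median of -0.14, and 0 passed over all genes, in a fit of 4 WT and 3 Fntb KO arrays. At an unadjusted p under 0.05, 12 were lower there and 1 higher, Rpa2 at 0.22, beside 6.02% of all genes lower. The share of all genes higher there was not counted. With those arrays as a block, the median was -0.17 and 3 members were lowered, Uhrf1, the DNA ligase Lig1 and the helicase subunit Mcm3. At an unadjusted p under 0.05 that limma fit had 15 members lower and 0 higher, beside 7.35% of all genes lower. Its share of all genes lowered at the adjusted threshold was not counted. Per array, the median level of the members was 5.95, 6.25, 6.08, 6.02 and 6.08 in WT 1 to 5 and 6.04, 5.87, 5.83, 5.87 and 5.67 in Fntb KO 1 to 5. In this median Fntb KO 1 lay above WT 1 and WT 4. The overlap was wider when each gene was first set against its own mean over the 10 arrays. The members' median deviation was then 0.11 in Fntb KO 1, above WT 1, 3, 4 and 5 (-0.04 to 0.08), and -0.02 in Fntb KO 2, above WT 1.

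**Figure D2:**
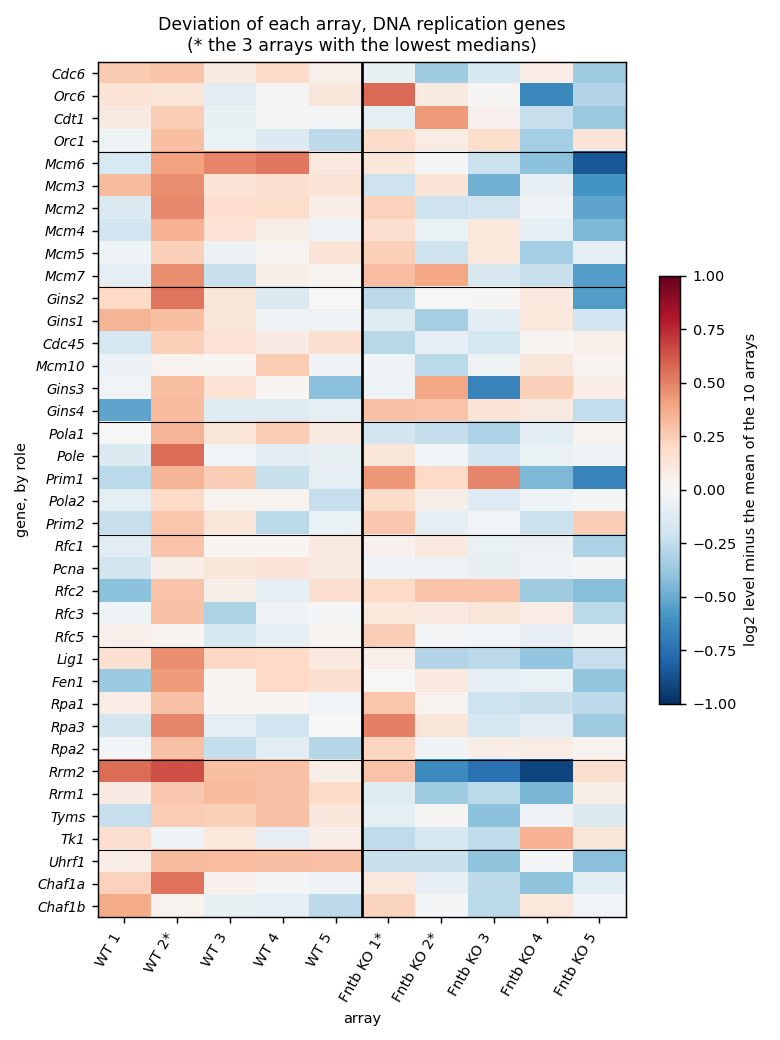
Deviation of each of the 10 arrays (columns; asterisks mark the 3 arrays with the lowest medians) from a gene's mean over all arrays (log2, colour), for 38 genes by role. WT 2 is red in most rows and Fntb KO 5 blue in many, and in Uhrf1, Lig1 and Rrm1 every WT cell is redder than every Fntb KO cell.

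Replication-coupled chromatin factors held the member that passed. Uhrf1, which reads hemimethylated DNA and recruits the maintenance methyltransferase Dnmt1, measured 5.40, 5.65, 5.64, 5.64 and 5.62 in WT 1 to 5. In Fntb KO 1 to 5 it measured 5.11, 5.11, 4.93, 5.32 and 4.92. All Fntb KO arrays lay below all WT arrays, and Fntb KO 4 came closest to the lowest WT array, WT 1. Uhrf1 fell 1.43-fold, by 0.51 on the log2 scale (SE 0.0960), with an adjusted p of 0.0202, and passed in 12 of 19 alternative settings. Its adjusted p was 0.0508 to 0.0656 without WT 2, WT 3, WT 4, WT 5, Fntb KO 3 or Fntb KO 5, and 0.112 without the 3 low-median arrays, while the difference stayed between -0.57 and -0.47. In sorted bulk cells, fewer cells in S phase and less RNA in each such cell cannot be told apart, here and for every gene below.

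The histone chaperone CAF-1, which deposits histones on new DNA, did not pass with either measured subunit. Its large subunit Chaf1a differed by -0.30 (95% interval -0.57 to -0.03, adjusted p 0.472), and in Fntb KO its mean of 3.93 lay below 4.19. That level is the 95th percentile of 1089 olfactory receptor genes, a guide to transcripts that T cells lack, and folds near or below it can understate a change. Chaf1b differed by 0.00 (-0.26 to 0.27). The sign of that value turned in 8 of 19 alternative settings. Dnmt1, the enzyme that Uhrf1 recruits, was 8.64 in WT and 8.55 in Fntb KO, and its difference of -0.09 did not pass (adjusted p 0.818).

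Nucleotide supply showed the most negative median of any role, at -0.36 over 4 genes, and 0 of the 4 passed. The 10 nucleotide supply genes of the wider replication list, which are no members, had a median of 0.06, with 8 positive, and 0 passed. Rrm1 encodes the large subunit of ribonucleotide reductase, which makes deoxynucleotides. It measured 6.60, 6.79, 6.83, 6.81 and 6.70 in WT 1 to 5 and 6.40, 6.16, 6.25, 6.06 and 6.59 in Fntb KO 1 to 5. The groups lay apart, narrowly so between WT 1 and Fntb KO 5. The difference of -0.46 (SE 0.104, 1.37-fold) had an adjusted p of 0.0585, and of 0.229 without the 3 low-median arrays. Rrm1 passed in 3 of 19 alternative settings, among them that without Fntb KO 5 (0.0204). It did not pass in the other 9 that leave out 1 array.

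Rrm2, the small subunit whose amount rises and falls with the cell cycle, had the largest difference of all members and the widest scatter. WT 1 to 5 measured 5.25, 5.35, 5.00, 4.99 and 4.76, and Fntb KO 1 to 5 measured 4.99, 4.06, 3.95, 3.78 and 4.86. Fntb KO 2, 3 and 4 lay far below every WT array, whereas Fntb KO 1 and Fntb KO 5 lay within the WT range. With an SD of 0.55 in Fntb KO against 0.23 in WT, the difference of -0.74 (SE 0.218) did not pass, at an adjusted p of 0.189. Another probe set of Rrm2, at a mean level of 3.87, differed by -0.29. Thymidylate synthase, Tyms, differed by -0.27 (adjusted p 0.478). Thymidine kinase, Tk1, which salvages thymidine, differed by -0.08 (0.917), and by 0.01 without the 3 low-median arrays.

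**Figure D3:**
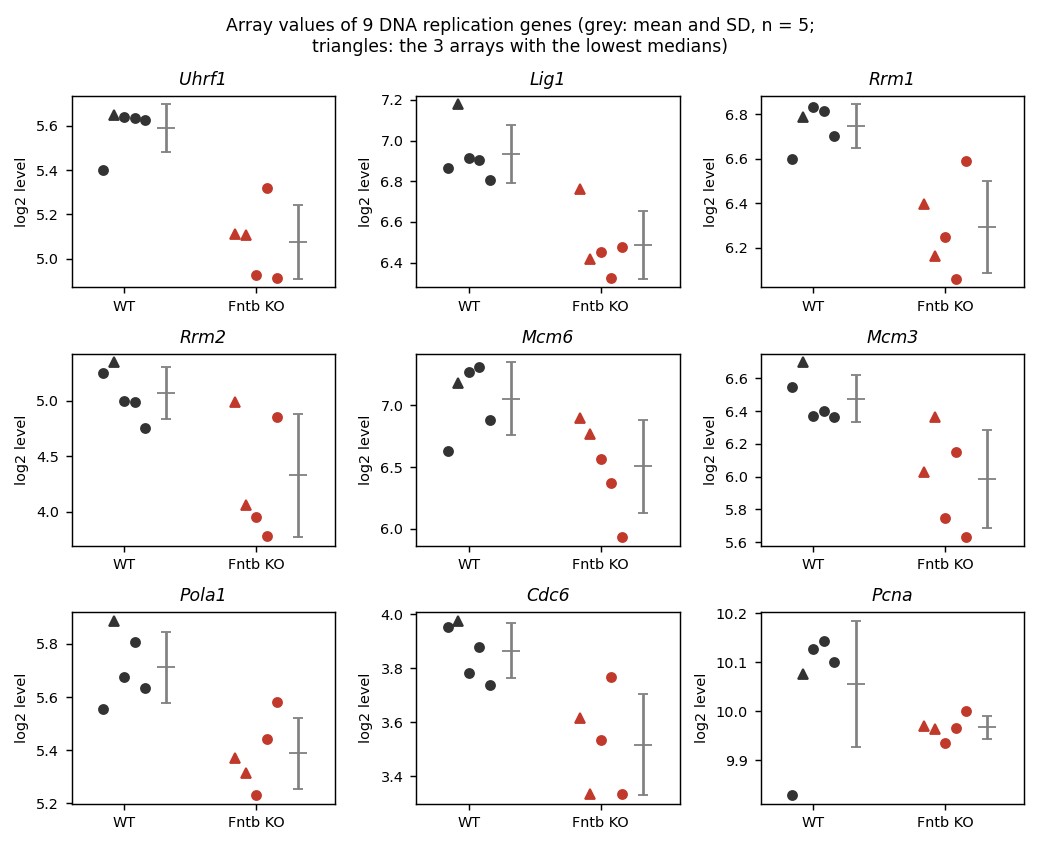
Log2 level of 9 replication genes in each array (points; triangles are the 3 low-median arrays), with the mean and SD of 5 arrays in grey and each panel on its own scale. Uhrf1, Lig1 and Rrm1 separate the genotypes, and in the other panels at least 1 Fntb KO array reaches the range of the WT arrays.

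All MCM2 to 7 subunits of the replicative helicase had negative differences, with a median of -0.21, and 0 of the 6 passed. Directions were the same with a second quantile normalization, but Mcm7 turned positive without WT 2 (0.01) and without Fntb KO 5 (0.03). Centring arrays on their medians made every difference more negative by the same amount, so it could not turn these signs. Mcm6 had the largest difference. It measured 6.63, 7.18, 7.27, 7.31 and 6.88 in WT 1 to 5 and 6.89, 6.77, 6.57, 6.37 and 5.94 in Fntb KO 1 to 5. WT 1 and WT 5 lay among the Fntb KO arrays, and Fntb KO 5 lay below all others. The difference was -0.55 (SE 0.177, 1.46-fold, adjusted p 0.251).

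Mcm3 ran from 6.36 to 6.70 in WT and from 5.63 to 6.36 in Fntb KO, so that the groups met at Fntb KO 2. Its difference of -0.49 (SE 0.133) had an adjusted p of 0.138. Mcm3 passed in 2 of 19 alternative settings, with a block for the low-median arrays (0.0219) and without Fntb KO 2 (0.0422). The other subunits differed by -0.29 (Mcm2), -0.13 (Mcm4), -0.12 (Mcm5) and -0.10 (Mcm7). These proteins work in 1 ring at equal numbers, but the array shows transcripts, and levels of different probe sets cannot be set against each other.

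Of the origin licensing genes 0 passed. Cdc6, the ATPase that loads the MCM ring together with Cdt1, measured 3.95, 3.98, 3.78, 3.88 and 3.74 in WT 1 to 5. In Fntb KO 1 to 5 it measured 3.61, 3.34, 3.53, 3.77 and 3.33. Only Fntb KO 4 reached the WT range, and all of these values lie below 4.19. The difference of -0.35 (SE 0.0999) did not pass (adjusted p 0.172). Cdt1 differed by -0.09, and the origin recognition subunits Orc6 and Orc1 by -0.11 and 0.09, with intervals that all include 0. Orc6 was the most scattered of these in Fntb KO, from 5.88 in Fntb KO 4 to 7.09 in Fntb KO 1. Orc1, at 4.08 in WT and 4.17 in Fntb KO, lay below 4.19 like Cdc6.

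Of the 6 helicase activators 5 were negative, and 0 passed. Gins2, a subunit of the GINS complex, measured 5.96, 6.29, 5.88, 5.61 and 5.76 in WT 1 to 5 and 5.50, 5.76, 5.76, 5.85 and 5.19 in Fntb KO 1 to 5. The groups overlapped widely, with only Fntb KO 1 and Fntb KO 5 below all WT arrays, and the difference was -0.28 (SE 0.144, adjusted p 0.599). Values of the GINS subunits, which sit in 1 complex, differed in sign. Gins1 differed by -0.26, Gins3 by -0.01 and Gins4 by 0.22, and none passed. Gins1, at 3.58 in WT and 3.32 in Fntb KO, lay below 4.19. Gins4 had the largest positive difference of the members (95% interval -0.09 to 0.54). Cdc45, which completes the helicase, differed by -0.18 (adjusted p 0.630), and Mcm10, which helps to activate it, by -0.08 (0.874). Mcm10, at 4.04 in WT and 3.96 in Fntb KO, also lay below 4.19.

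Of the polymerase and primase genes, 0 passed. Pola1, the catalytic subunit of the polymerase that starts each new strand, measured 5.56, 5.89, 5.67, 5.81 and 5.64 in WT 1 to 5. In Fntb KO 1 to 5 it measured 5.37, 5.31, 5.23, 5.44 and 5.58. Fntb KO 5 alone lay above a WT array, WT 1. The difference was -0.32 (SE 0.0940, 1.25-fold, adjusted p 0.180), with an interval, not adjusted for the number of genes, of -0.53 to -0.12. Its partners in the same complex had intervals around 0. Pola2 differed by 0.02 (-0.19 to 0.23), and the primase subunits Prim1 by -0.00 (-0.47 to 0.47) and Prim2 by 0.07 (-0.21 to 0.34). Pole, the catalytic subunit of the leading-strand polymerase, differed by -0.08 (-0.36 to 0.19).

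Clamp and clamp loader genes had a median difference of -0.01 over 5 measured genes, and 0 of them was lower or higher at an unadjusted p under 0.05. Pcna, the sliding clamp that holds polymerases on DNA, was 10.06 ± 0.13 in WT and 9.97 ± 0.02 in Fntb KO (SD, n = 5 each). The difference of -0.09 had an interval of -0.26 to 0.09. Rfc1, the large subunit of the clamp loader, had the largest difference of the group. It measured 7.15, 7.54, 7.27, 7.28 and 7.34 in WT 1 to 5 and 7.30, 7.35, 7.19, 7.20 and 6.94 in Fntb KO 1 to 5. Only Fntb KO 5 lay below all WT arrays, and the difference of -0.12 (SE 0.0999) did not pass (adjusted p 0.806). Rfc2, Rfc3 and Rfc5 differed by -0.01, 0.05 and 0.06.

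Strand maturation held the third member whose groups lay apart. Lig1, the ligase that joins Okazaki fragments, measured 6.87, 7.18, 6.92, 6.91 and 6.81 in WT 1 to 5 and 6.76, 6.42, 6.45, 6.32 and 6.48 in Fntb KO 1 to 5. Fntb KO 1 lay just below WT 5, and the other Fntb KO arrays well below. The difference was -0.45 (SE 0.101, 1.36-fold) with an adjusted p of 0.0550. It passed in 5 of 19 alternative settings, among them array weights (0.0371) and the second quantile normalization (0.0225). It missed the threshold when the 3 low-median arrays were left out (0.0582) and when any of 9 single arrays was left out. Fen1, the nuclease that trims the fragments before Lig1 seals them, differed by -0.18 (adjusted p 0.782).

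Subunits of RPA, which coats unwound DNA, differed by -0.15 (Rpa1), 0.14 (Rpa2) and -0.01 (Rpa3), and none passed. Other probe sets of Rpa1, Pole and Fen1 gave differences of -0.10, -0.07 and -0.13, of the same sign as those used. For Pole and Fen1 these probe sets had a mean level of 3.53 each, below 4.19. The other probe set of Rpa3, at a mean level of 6.82, differed by 0.26 and disagreed in sign with the one used.

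Replication genes outside the members were followed in a list chosen by function. Of 52 such genes 1 fell (1.92%, beside 0.807% of all genes) and 0 rose, and their median difference was -0.04. Mms22l, which with Tonsl helps stalled forks to recover, measured 5.90, 6.18, 5.95, 5.87 and 5.86 in WT 1 to 5. In Fntb KO 1 to 5 it measured 5.44, 5.48, 5.24, 5.19 and 5.53. The groups lay apart, and it fell 1.49-fold (adjusted p 0.00971) and passed in every alternative setting run. Tonsl itself differed by 0.09 (adjusted p 0.883). At an unadjusted p under 0.05, 8 of the 52 were lower (15.4%) and 0 higher, beside 5.01% and 4.25% of all genes. In 2 of the 52 (3.85%) every Fntb KO array lay below every WT array, beside 1.65% of all genes.

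Of 30 regulators of the G1 to S transition 0 fell and 0 rose over all genes. At an unadjusted p under 0.05, 6 were lower (20%) and 2 higher, beside 5.01% and 4.25% of all genes. The CDK inhibitor Cdkn2c differed by -0.51 (adjusted p 0.376), and the largest difference after it was that of the cyclin Ccna2, at -0.45 (0.311). Ccna2, at 3.99 in WT and 3.54 in Fntb KO, lay below 4.19, as did Cdkn2c in Fntb KO, at 4.04. Folds near or below that level can understate a change. The activator E2f1 differed by -0.10 (0.836), a value given because its motif was searched. Other E2F genes went both ways, such as E2f5 at 0.42 (0.259) and E2f8 at -0.26 (0.274). E2f8 lay below 4.19 in both groups. Every Fntb KO array lay below every WT array in 3 of the 30 regulators (10%), E2f8 among them, beside 1.65% of all genes. In 1, E2f5, every Fntb KO array lay above, beside 1.01% of all genes. The list's median was -0.09.

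Mitosis genes, another set of the cell cycle, had a more negative median. Of 27 measured, 25 were negative, 3 fell (11.1%, beside 0.807% of all genes) and 0 rose. In 6 (22.2%) every Fntb KO array lay below every WT array, beside 7.89% of the replication members and 1.65% of all genes. The median was -0.20, beside -0.11 for the replication genes, and no test of that difference was made. The lists also differ in level, since 11 of the 27 lay below 4.19 in both groups, against 4 of the 38 replication genes. Top2a, which untangles chromosomes, fell by 1.20 on the log2 scale, the proliferation antigen Mki67 fell by 0.93, and the checkpoint kinase Bub1b fell by 0.42. The adjusted p-values of these 3 were 0.000106, 0.000636 and 0.0328, and Bub1b lay below 4.19 in both groups. Top2a and Mki67 passed in all 19 alternative settings, whereas Bub1b did not pass when any of 9 single arrays was left out, nor without the 3 low-median arrays (difference -0.42 with all arrays). Both Top2a and Mki67 differed by more than any replication member.

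**Figure D4:**
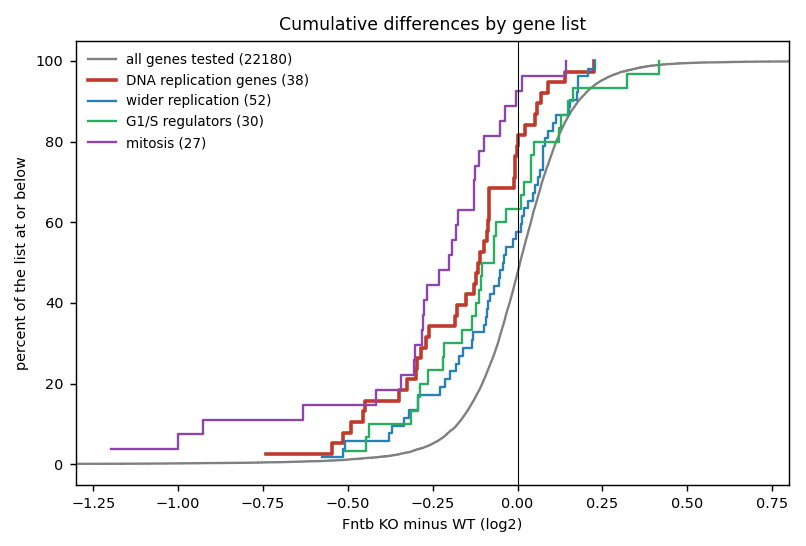
Share of each gene list (y axis, percent) with a Fntb KO minus WT difference at or below the value on the x axis (log2). The replication genes (red, 38 genes) lie left of all 22180 genes (grey), with medians of -0.11 and 0.01, and the mitosis genes (purple, median -0.20) farther left.

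Cells of both groups carried Treg markers. Foxp3 measured 10.67 ± 0.03 in WT and 10.53 ± 0.05 in Fntb KO (SD, n = 5 each), a difference of -0.14 with an adjusted p of 0.601. All its Fntb KO values lay below all WT values (two-sided exact permutation p = 0.00794). That p is not adjusted for the number of genes, and the unadjusted limma p was 0.0705. Of the 8 Treg and T cell markers 7 had negative differences. The largest was that of Ikzf2, which encodes the transcription factor Helios, at -0.41 (adjusted p 0.236). Ctla4, an inhibitory receptor of Treg cells, differed by -0.39 (adjusted p 0.0778), again with every Fntb KO array below every WT array. That was so in 2 of the 8 (25%), beside 1.65% of all genes and 2.65% of those at or above the median level. Summed on the linear scale, these markers ran from 13.20 to 13.35 (log2) in WT and from 13.09 to 13.22 in Fntb KO, and 0 of 8 passed. Because other cells in the sort could divide at their own rate, 34 markers of 7 other cell types were read too. Of these, 1 passed, Nkg7, a granule gene of cytotoxic cells, at -0.79 (adjusted p 0.0126). Of the 6 markers in its CD8 T or NK cell list, 4 went the other way, from 0.07 (Klrb1c) to 0.27 (Cd8b1), and Eomes differed by -0.07. Summed CD8 T or NK cell markers ran from 8.24 to 8.73 in WT and from 7.72 to 8.50 in Fntb KO, and 4 of 6 lay below 4.19 in both groups. Neutrophil markers ran from 6.07 to 6.45 in WT and from 6.04 to 7.60 in Fntb KO, with S100a8 at 1.05 (0.321) and 3 of 5 below 4.19.

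The other summed marker lists overlapped between the groups. B cell markers ran from 6.51 to 6.87 in WT and from 6.43 to 6.85 in Fntb KO (2 of 5 below 4.19), with Cd79b at -0.41. Plasma cell markers ran from 7.77 to 8.02 and from 7.66 to 8.04 (3 of 5), with Derl3 at 0.28. Monocyte or macrophage markers ran from 7.12 to 7.43 and from 6.72 to 7.70 (3 of 5), with Csf1r at -0.28. Dendritic cell markers ran from 6.06 to 6.45 and from 6.05 to 6.57 (3 of 5), with Xcr1 at 0.15, and erythroid markers from 7.30 to 7.57 and from 7.16 to 7.55 (2 of 3), with Car1 at -0.23. Signs within these lists were mixed. Of the 5 B cell markers 4 were positive, unlike Cd79b, and of the 5 plasma cell markers 3 were negative, unlike Derl3. The part of any of these cells in the replication genes' differences was not tested.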

How the data were processed

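Gene expression was measured in 5 WT and 5 Fntb KO samples of sorted Treg cells on one-colour Affymetrix arrays. The values deposited by the authors are on the log2 scale and were made with RMA in Affymetrix Expression Console 1.1, per the submitters' processing notes. RMA corrects background, quantile-normalizes and summarises probes, with no further settings stated in the labels. The 2 deposited tables held identical values.

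Of 41345 probe sets, the 23521 that the platform annotation gives 1 gene symbol were used. Those with several (1820) or no symbol (16004) were left out. The probe set with the highest mean was kept per gene. Genotypes were compared with limma 3.58.1 in R 4.3.3 (lmFit and eBayes, no covariate, no filter on dim genes), with Benjamini-Hochberg adjustment over 22180 genes and a threshold of 0.05. Every adjusted p comes from that fit unless another setting is named. The script was tested on data with known changes. The number of arrays limits the precision. The labels give no replicate numbers, and numbers here follow accession order.

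The members, gene lists, tests and alternatives were chosen with earlier results of these data known. Array values are given for members that passed, whose groups lay apart, or that had the largest difference of their role. From the other lists up to 6 genes that passed are named, or the 2 with the largest difference. From each marker list the gene with the largest difference is named. Dnmt1, Tonsl, E2f1, E2f5, E2f8 and Ctla4 are named outside that rule, E2f5, E2f8 and Ctla4 after their values were seen. Motif searches used Python 3.11.15.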

Additional observations from a re-analysis of the deposited data

Results flagged for a closer look

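Of 80 sets of 5 arrays examined (each member, Fntb and the members' median, per genotype), 6 held an array far from the other 4, by Dixon's criterion. Chance marks about 1 in 20 such sets. Uhrf1 measured 5.40 in WT 1, below the other WT arrays, and Pcna measured 9.83 in the same array. Pole measured 5.29 in WT 2, above the other WT arrays. Among Fntb KO arrays, Orc1 was low in Fntb KO 4 at 3.79, Rfc3 was low in Fntb KO 5 at 4.99, and Rfc5 was high in Fntb KO 1 at 7.03. WT 2 and Fntb KO 1, which hold 2 of the 6, are among the 3 arrays with the lowest medians. Without WT 1, the difference of Uhrf1 was -0.56 and that of Pcna -0.14.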

How the results depend on the processing

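Results were recomputed under 19 alternative settings, 10 of which leave out 1 array. Orc1, Cdc6, Gins1, Mcm10 and Chaf1a had 18, since they lie below the median level that 1 setting requires. The median difference of the members ran from -0.17 to -0.10 over the other 9 and from -0.17 to -0.08 without 1 array. The number of lowered members, 1 as described, was 2 with a second quantile normalization, 3 with genes at or above the median level only, with array weights and with a block for the 3 low-median arrays, and 0 without those arrays, where fewer arrays were tested. It ran from 0 to 2 without 1 array, and 0 members were raised in any setting. The share of all genes lowered was not counted in these settings, so a change in number cannot be read as particular to the members. With the block the wider replication list had 2 lowered genes and the G1 to S regulators 2. Leaving out 1 array gave 0 to 1 lowered G1 to S regulators. Fntb passed in all 19 settings, from -0.68 to -0.59. No paired analysis was possible because the labels give no replicate numbers.

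In 27 of 38 members no setting turned the sign. The other 11 had differences of at most 0.11 in size as described, and the cause was not tested. With the second quantile normalization Gins3 was 0.012, Prim1 0.0021 and Rpa3 0.015. With array weights Prim1 was 0.019 and Rpa3 0.010, and the mean of probe sets gave Rpa3 0.13. Chaf1b was -0.0069 with arrays centred on their medians, -0.021 with the block and -0.053 without the low-median arrays. Pola2 was -0.021 with the block and -0.00072 without those arrays. Tk1 was 0.0062 without those arrays. Leaving out 1 array, ranges were -0.27 to 0.038 for Orc6, -0.21 to 0.028 for Mcm7, -0.12 to 0.16 for Gins3, -0.033 to 0.073 for Pola2, -0.12 to 0.17 for Prim1, -0.13 to 0.045 for Pole, -0.11 to 0.10 for Rfc2, -0.022 to 0.13 for Rfc3, -0.14 to 0.11 for Rpa3 and -0.062 to 0.096 for Chaf1b. Genes below the olfactory receptor guide level have the least signal over background.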
